A study of Macaca mulatta with 34 samples.

Results

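Small RNA was sequenced from the cerebellum of rhesus macaques that had received either AAV.miS1 or vehicle by injection into the deep cerebellar nuclei, guided by magnetic resonance imaging. The labels name the sampled region Intermediate Deep. These libraries, chosen by their titles, are 6 of the 34 samples in the series: 3 labelled as dosed with AAV.miS1 and 3 labelled vehicle. AAV.miS1 is an adeno-associated virus (rAAV2/1) whose cargo expresses miS1, an artificial microRNA directed against ATXN1, the gene with the repeat expansion of spinocerebellar ataxia type 1. The study asked what lay behind the toxicity of this vector in the macaque cerebellum. The same injection route was used in both groups, so the comparison holds the surgery constant and differs in the vector and its cargo together. No empty or non-targeting vector is among these 6 libraries, and so effects of the capsid, the vector genome and miS1 cannot be told apart here. The sources used here give no dose, interval after injection, age or animal identity, and all p-values therefore measure the spread between these 6 libraries, which may be technical.

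MicroRNAs are short RNAs cut from hairpin precursors by Drosha and Dicer and loaded into Argonaute proteins, which they guide to matching messenger RNAs. An artificial microRNA such as miS1 enters the same pathway, so it is read out in a small RNA library beside the cell's own microRNAs. Such libraries also hold fragments of small nucleolar RNAs (snoRNAs), which guide ribose methylation (box C/D) or pseudouridylation (box H/ACA) of other RNAs, and of Y RNAs, vault RNAs, spliceosomal RNAs and the RNA of the signal recognition particle (SRP), together with pieces of messenger RNA. In brain, miR-9, miR-124 and miR-128 mark neurons, and miR-219 and miR-338 oligodendrocytes. miR-142, miR-223 and miR-155 mark immune cells, and miR-451 red cells.

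Counts in genes totalled 4756968, 9879519 and 4931347 in AAV.miS1 replicates 1 to 3 and 7421542, 10629988 and 8409548 in vehicle replicates 1 to 3. Of 34847 gene identifiers, 538 carried a microRNA symbol and 369 of these had at least 1 count. Replicate 2 of AAV.miS1 stood apart from the other libraries in genes that carry a symbol outside the small RNA classes. Its Spearman correlation with the other AAV.miS1 libraries, across 6614 such genes, was 0.336 and 0.355, against 0.83 between replicates 1 and 3. With vehicle replicates 1 to 3 it was 0.51, 0.527 and 0.475. Across 254 box C/D snoRNA genes replicate 2 did not stand apart from vehicle. There it correlated with vehicle replicates 1 to 3 at 0.956, 0.98 and 0.98. AAV.miS1 replicate 1 did so at 0.947, 0.926 and 0.928, and replicate 3 at 0.964, 0.946 and 0.946. Across 211 microRNA genes the 15 pairs of libraries correlated at 0.944 to 0.983, so the ranking of microRNAs was close to common to all 6. These correlations are across genes within pairs of libraries, and genes are not independent replicates. In bulk tissue, fewer cells of a type and less RNA per cell cannot be told apart.

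Within the counts, microRNA genes took 23, 30.1 and 23.3% in AAV.miS1 replicates 1 to 3 and 30.9, 26.1 and 29.3% in vehicle replicates 1 to 3. The AAV.miS1 mean was 25.5% ± 3.98 (SD, n = 3) and the vehicle mean 28.7% ± 2.46 (SD, n = 3), and the groups overlapped (two-sided exact permutation p = 0.3). Box C/D snoRNA genes took 6.58, 15.2 and 8.17% with AAV.miS1 and 9.38, 11.7 and 12.9% with vehicle, so that replicate 2 was the highest of the 6 libraries and replicates 1 and 3 the lowest. Genes that carry a symbol outside the small RNA classes ran the other way. They took 11.8, 2.44 and 9.02% with AAV.miS1 and 3.39, 3.5 and 4.82% with vehicle. These genes hold fragments of messenger RNAs but also some microRNA reads. VMP1, at 3642 RPM in AAV.miS1 replicate 2, is among them and carries the reads of miR-21. Y RNA genes took 5.11, 2.96 and 5.62% with AAV.miS1 and 2.74, 2.11 and 3.17% with vehicle. Vault RNA genes were the single class of 11 whose groups did not overlap, at 0.0546, 0.0706 and 0.0457% with AAV.miS1 and 0.0266, 0.0217 and 0.0374% with vehicle (two-sided exact permutation p = 0.1, the smallest that 3 against 3 allows, and 0.629 after Benjamini-Hochberg adjustment over the 11 classes). No class differed between the groups by this test, which could not have passed at this size.

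**Figure D1:**
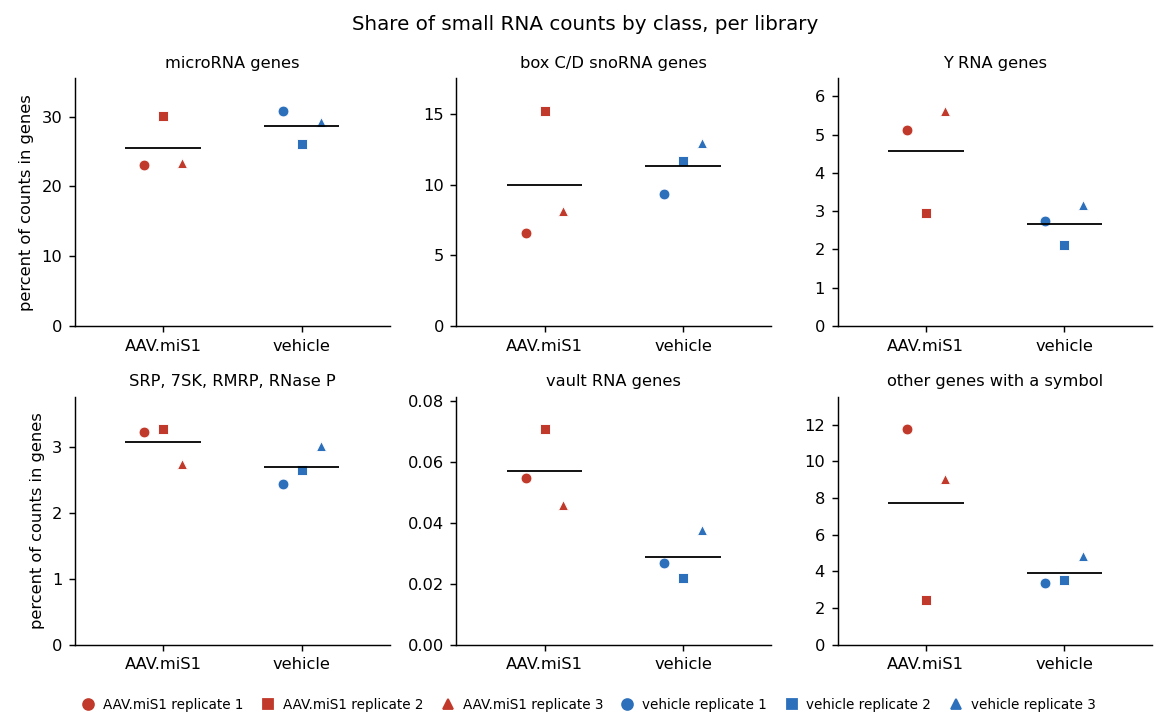
Percent of counts in genes taken by 6 RNA classes (vertical axes, each from 0), with 1 point per library and black bars at the group means. Genes with no symbol, the largest class, are not drawn. AAV.miS1 replicate 2 (square) holds 15.2% in box C/D snoRNA genes and 2.44% in other genes with a symbol, while replicates 1 and 3 hold 11.8 and 9.02% in the latter; the vault RNA groups do not overlap.

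Reads of miS1 were present in all 3 AAV.miS1 libraries, at levels that differed by more than an order of magnitude. The miS1 feature held 4502, 68887 and 526 counts in AAV.miS1 replicates 1 to 3, or 946.4, 6973 and 106.7 RPM (the count divided by the library's total in genes, times 1000000). In vehicle replicates 1 to 3 it held 8, 0 and 10 counts, or 1.08, 0 and 1.19 RPM. The exact Poisson 95% interval of the library with 0 counts reached 0.347 RPM, and its floor of 3 counts was 0.282 RPM. The groups did not overlap, with means of 2675 ± 3745 and 0.756 ± 0.657 RPM (SD, n = 3 each; p = 0.1 by a two-sided exact permutation test, whether on RPM or on log values, which is the smallest p possible). The exact Poisson 95% interval of the 10 counts in vehicle replicate 3 was 0.57 to 2.19 RPM, and the source of those reads was not tested. Such intervals and floors cover counting error only.

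Set beside the tissue's own microRNAs, miS1 amounted to 0.411, 2.32 and 0.0457% of the counts in microRNA genes in AAV.miS1 replicates 1 to 3. It would have ranked 17, 9 and 50 among the microRNA genes of those libraries. Nearly all vector reads were miS1, at 99.8, 99.7 and 99.6% of the vector counts. The stuffer, filler sequence of the vector, held 5, 78 and 0 counts in the same libraries and 0 in each vehicle library.

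No gene passed an adjusted p of 0.05 in either scaling. Of 8311 genes tested, edgeR's quasi-likelihood test called 0 (0% of the genes tested) after scaling by the trimmed mean of M values (TMM), with 52 at an unadjusted p under 0.05 (0.626%), and 0 (0%) after scaling by total counts alone, with 55 at an unadjusted p under 0.05 (0.662%). DESeq2 called 0 of the 24171 genes it gave an adjusted p, with 143 at an unadjusted p under 0.05, but it left 205 genes without a p, among them 57 microRNA genes including miR-155 and miR-451. With its filters off, so that all 24376 genes had a value, DESeq2 called 1, a U4 gene (ENSMMUG00000024391) with 150 counts in vehicle replicate 2 and 0 elsewhere, and 0 microRNA genes. Among the 211 microRNA genes tested, 2 had an unadjusted p under 0.05 in each scaling. Among 321 snoRNA genes it was 0 with TMM and 2 with total counts, and among 336 genes of the other small RNA classes 4 and 14. The smallest adjusted p was 1 with TMM and 0.716 with total counts.

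The scalings placed the small RNAs differently against each other and against genes with a symbol outside the small RNA classes. TMM factors over all genes were 2.48, 0.375 and 1.91 in AAV.miS1 replicates 1 to 3 and 0.683, 0.773 and 1.07 in vehicle replicates 1 to 3, so that AAV.miS1 held both the highest factors and the lowest. Computed over microRNA genes alone they lay between 0.857 and 1.16 in all 6 libraries. The median log2 fold change of all tested genes was 0.06 with TMM and 0.91 with total counts. For microRNA genes it was 0.05 with TMM and -0.15 with total counts, 122 of 211 members being positive with TMM and 63 with total counts. For snoRNA genes the median was 0.25 with TMM and 0.00462 with total counts, and for the other small RNA classes 0.03 and 0.23.

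The 152 microRNA genes with a mean of at least 10 RPM show the same contrast library by library. With total counts, their median log2 ratio to the vehicle mean was -0.45, 0.25 and -0.49 in AAV.miS1 replicates 1 to 3. With TMM it was -1.99, 1.37 and -1.70, a far wider split within the AAV.miS1 group than between the groups. In vehicle libraries it stayed between -0.33 and 0.18 in both scalings. Box C/D snoRNA genes followed microRNA genes, with medians of -0.67, 0.44 and -0.42 with total counts and -2.23, 1.58 and -1.59 with TMM. Genes with a symbol outside the small RNA classes moved oppositely, by 1.84, -1.96 and 1.45 with total counts and by 0.34, -0.96 and 0.32 with TMM. These ratios were computed on level plus 0.5 RPM.

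**Figure D2:**
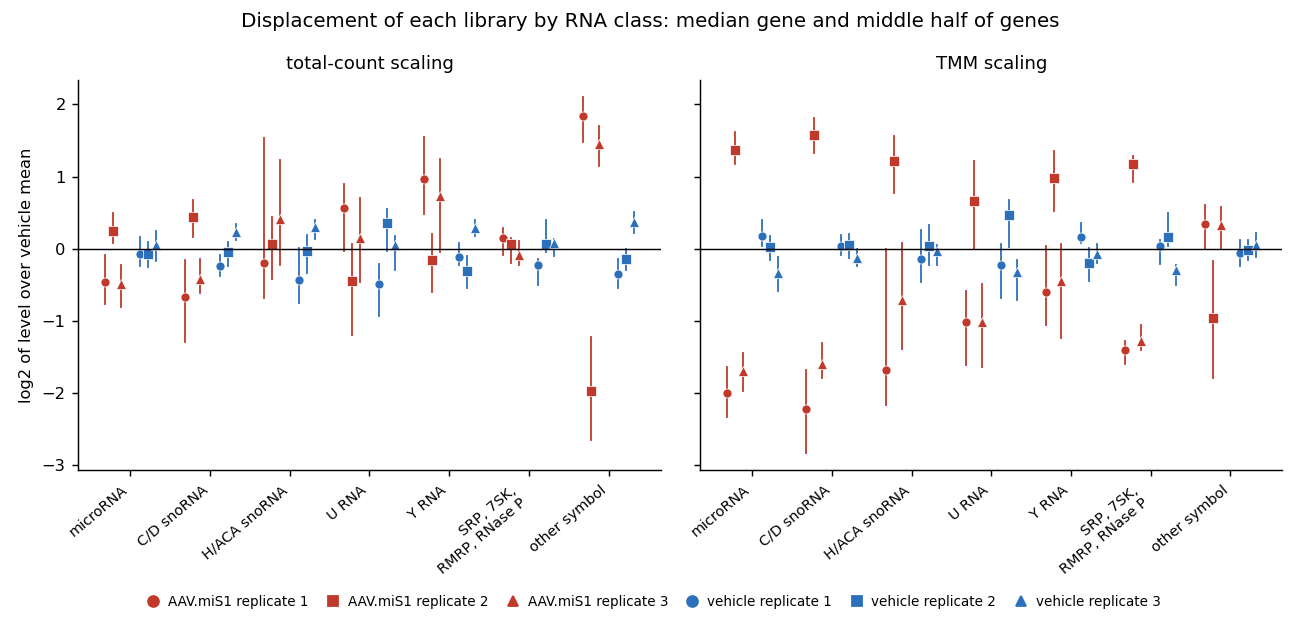
Log2 of each library's level over the vehicle mean (vertical axis) for genes of 7 RNA classes with a mean of at least 10 RPM, under total-count scaling (left) and TMM (right). Points are the median gene and lines the interquartile range of genes; microRNA genes of AAV.miS1 replicates 1, 2 and 3 sit at -0.45, 0.25 and -0.49 on the left and at -1.99, 1.37 and -1.70 on the right.

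Leaving out AAV.miS1 replicate 2 ended the absence of calls, and the direction then depended on the scaling. With TMM, 642 of 10174 genes were called, 41 higher (0.403% of the genes tested) and 601 lower (5.91%) with AAV.miS1, and the microRNA genes among them were 151 lower and 0 higher of 214. With total counts, 5156 genes were called, 5099 higher (50.1%) and 57 lower (0.56%), of which microRNA genes were 0 higher and 10 lower. With TMM over microRNA genes alone, 0 of 218 were called in either direction (0% and 0%), with 11 at an unadjusted p under 0.05. The microRNA median was -1.92, -0.43 and -0.06 in these 3 fits. Genes with a symbol outside the small RNA classes took 11.8 and 9.02% of counts in the remaining AAV.miS1 libraries. Their part in these calls was not tested.

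The microRNA profile matched the brain label. The most abundant gene was miR-9-2 (mml-mir-9-2), of the neuronal miR-9 family, at 104800, 91540 and 107300 RPM with AAV.miS1 and 145800, 82700 and 82480 RPM with vehicle. An identifier with no symbol carried nearly the same counts in every library, so miR-9 reads entered the library totals more than once. Next came miR-30d, at 16130, 36610 and 20380 RPM with AAV.miS1 and 26090, 32990 and 36400 RPM with vehicle, and miR-30c-1, at 15950, 34220 and 20190 against 25440, 25900 and 34780 RPM. miR-125a, miR-103-2, miR-181a-2, miR-342, let-7a-3, miR-181a-1 and miR-301a completed the 10 most abundant, with means from 3413 to 25400 RPM over the 6 libraries. In each of these 10 genes the groups overlapped under total counts. The neuronal miR-124 copies lay between 380.8 and 603 RPM in all libraries, and miR-124a-2 was 442.7, 601.6 and 396.6 RPM with AAV.miS1 and 433.5, 570.9 and 507 RPM with vehicle. The liver microRNA miR-122 was at 0 in the AAV.miS1 libraries and at no more than 0.376 RPM with vehicle. The muscle microRNA miR-133a was detected, at 37.4, 200 and 70.2 RPM against 75.2, 93.3 and 80.2 RPM. By summed level, the heart and skeletal muscle markers, of which 4 of 8 were detected, stood at 74.8, 402.0 and 141.5 RPM against 150.6, 187.2 and 161.4 RPM, highest in AAV.miS1 replicate 2. miR-133a and miR-133c carry the same reads, so this sum holds them 2 times. The gut and pancreas markers, of which 5 of 7 were detected, stood at 39.5, 89.5 and 37.3 RPM against 65.8, 76.3 and 101.2 RPM, and the groups overlapped.

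Several immune microRNAs and 1 red cell microRNA, miR-451, were high in AAV.miS1 replicate 2 and not in the other AAV.miS1 libraries. miR-155, which is induced in activated immune cells, stood at 0.42, 77.6 and 3.245 RPM with AAV.miS1 and at 2.96, 2.45 and 4.76 RPM with vehicle. Replicate 2 lay 16.3-fold above the next highest library, and the other AAV.miS1 libraries lay within or below the vehicle range. The log2 fold change was 4.11 (SE 1.77, unadjusted p = 0.0397, adjusted p = 1) with TMM and 3.0 (SE 1.35, unadjusted p = 0.0442, adjusted p = 0.716) with total counts by edgeR. miR-451, a red cell microRNA, stood at 5.05, 178 and 1.62 RPM with AAV.miS1 and 5.12, 10.3 and 8.8 RPM with vehicle. Its log2 fold change was 4.02 (SE 1.82, adjusted p = 1) with TMM and 2.92 (SE 1.30, adjusted p = 0.716) with total counts by edgeR, and replicate 2 again stood alone. Neither gene passed the test.

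miR-146a, a feedback regulator of NF-kappa B signalling, stood at 23.5, 231 and 33.7 RPM with AAV.miS1 and at 34.2, 37.3 and 30.9 RPM with vehicle. miR-142, of myeloid and lymphoid cells, stood at 4.2, 58.6 and 4.87 RPM with AAV.miS1 and at 10.2, 3.2 and 5.47 RPM with vehicle. In both, replicate 2 was over 5-fold above every other library, while replicates 1 and 3 lay near the vehicle values. miR-21, raised in many reactive tissues, stood at 442.7, 3641 and 466 RPM with AAV.miS1 and at 937.8, 540.4 and 480 RPM with vehicle. VMP1, the gene that overlaps miR-21, carried counts within 1% of those of miR-21 in every library, so both hold the same reads. miR-223, a myeloid microRNA, stood at 10.1, 52 and 4.87 RPM with AAV.miS1 and at 18.1, 15.8 and 13.3 RPM with vehicle, with replicates 1 and 3 below all vehicle libraries. The log2 fold changes of miR-146a, miR-142, miR-21 and miR-223 were 2.33, 2.72, 2.0 and 1.28 with TMM and 1.49, 1.84, 1.22 and 0.51 with total counts, and none passed the test. miR-144, which shares its precursor transcript with miR-451, was at or below 0.27 RPM in every library and was not tested.

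Of the 152 microRNA genes with a mean of at least 10 RPM, replicate 2 lay at least 2-fold above all other libraries in 9 with total counts, 95 with TMM and 6 with TMM over microRNA genes. The last 6 were miR-155, miR-451, miR-146a, miR-21, miR-142 and miR-223. The 9 with total counts were the same 6 with miR-34a, miR-133a and miR-133c, the last pair being the same reads counted in each gene. In the other 5 libraries this count was 0 or 1 in each of these scalings. Replicate 2 was also the library with the most miS1, at 6973 RPM. It had the smallest share of counts in genes with a symbol outside the small RNA classes. The part of either in these levels was not tested. Over the 15 immune and inflammation microRNAs listed, 13 were tested, 0 were called, and 11 were highest in replicate 2. Their median log2 fold change was 1.05 with TMM and 0.28 with total counts, beside 0.06 and 0.91 over all genes tested. The most abundant of them, miR-342, did not share the pattern, at 10980, 9563 and 5026 RPM with AAV.miS1 and 10110, 7000 and 9932 RPM with vehicle. Replicate 2 was also highest in 3 of 3 oligodendrocyte, 4 of 6 miR-30, 4 of 6 miR-181 and 6 of 10 miR-17-92 genes. In the neuronal, let-7 and DLK1-DIO3 lists it was highest in 6 of 21, 3 of 11 and 3 of 13. The share over all tested genes was not counted. The summed level of the myeloid and lymphoid markers, all 5 of them tested, overlapped between the groups, at 5072 to 11020 RPM with AAV.miS1 and 7059 to 10180 RPM with vehicle. The red cell markers, 2 of 3 of them tested and 0 called, summed to 96.7, 290.8 and 76 RPM with AAV.miS1 and 65.6, 90.7 and 107.7 RPM with vehicle. The peak in replicate 2 is mostly miR-451. The other tested marker, miR-486-1 (MIR486-1), overlapped, at 91.7, 113.1 and 74.4 RPM with AAV.miS1 and 60.2, 80.3 and 98.9 RPM with vehicle. miR-363, also on the red cell list, was highest in vehicle replicate 1, at 116.6 RPM. The part of blood in these levels was not tested.

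Without replicate 2 the direction of miR-155, miR-451 and miR-223 turned in each of the 3 scalings tried. The mean of AAV.miS1 replicates 1 and 3 was 1.83 RPM for miR-155 against a vehicle mean of 3.39 ± 1.21 RPM (SD, n = 3), and 3.33 against 8.09 ± 2.69 RPM for miR-451. It was 7.48 against 15.7 ± 2.37 RPM for miR-223. The log2 fold changes of miR-155, miR-451 and miR-223 were then -0.87, -1.29 and -1.07 with total counts (edgeR adjusted p = 0.288, 0.06 and 0.0548) and -2.21, -2.78 and -2.62 with TMM (adjusted p = 0.0819, 0.00697 and 0.00695). With TMM over microRNA genes alone they were -0.43, -0.91 and -0.71 (adjusted p = 0.978, 0.954 and 0.954). The median microRNA gene in these fits stood at -0.43 with total counts, -1.92 with TMM and -0.06 with TMM over microRNA genes. Of 214 tested, 151 were called lower with TMM and 10 with total counts.

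**Figure D3:**
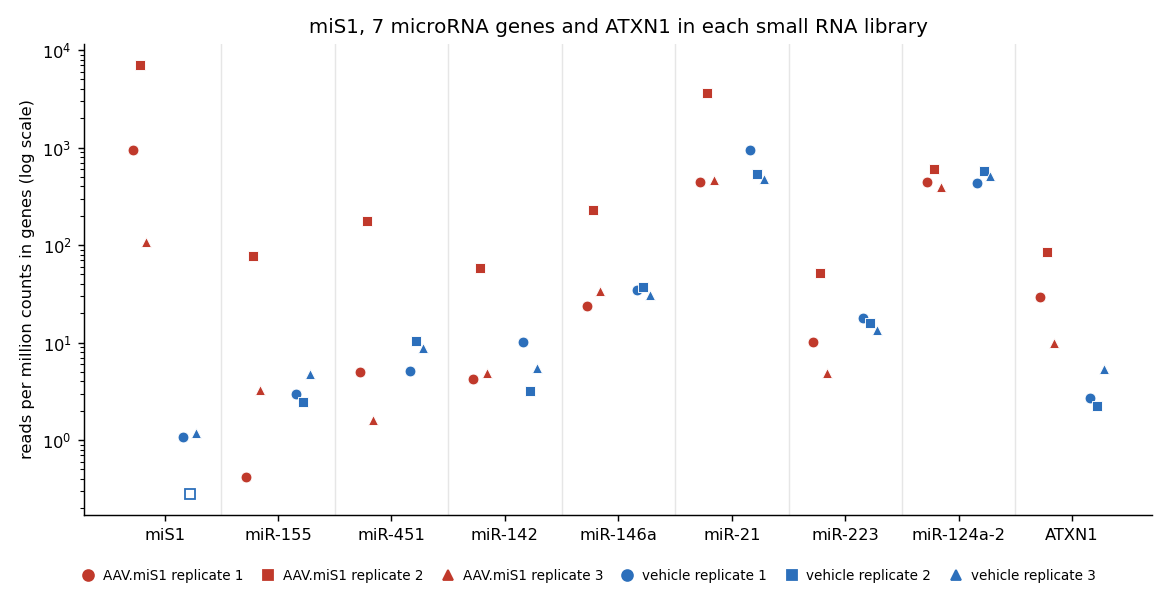
Level of miS1, 7 microRNA genes and ATXN1 in each library, in RPM on a log axis; the open square is the floor of 3 counts for vehicle replicate 2, which held no miS1 read. AAV.miS1 replicate 2 (red square) is far above the other libraries for miR-155 (77.6 RPM), miR-451 (178), miR-142 (58.6), miR-146a (231), miR-21 (3641) and miR-223 (52), while miR-124a-2 lies between 396.6 and 601.6 RPM in all 6.

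No microRNA gene lay above all vehicle libraries in all 3 AAV.miS1 libraries, with total counts or with TMM (1.64 and 2.27% of all tested genes did). With total counts 7 of 211, or 3.32%, lay below all vehicle libraries, beside 0.313% of all tested genes, and with TMM 0 did, beside 2%. Total counts gave a positive fold change to 90.3% of all tested genes and to 29.9% of microRNA genes, so these shares have unlike baselines. The 7 were miR-212, miR-10b, miR-128b, miR-541, miR-664, miR-383 and miR-885, named for this pattern after their values were seen. miR-212, an activity-regulated neuronal microRNA, had the largest fold change of those above 10 RPM, at 22.3, 41.5 and 13.4 RPM with AAV.miS1 and 42.9, 57.2 and 109.5 RPM with vehicle. Its log2 fold change was -1.44 (SE 0.71, unadjusted p = 0.0635, adjusted p = 0.716) with total counts and -0.93 (SE 1.04, adjusted p = 1) with TMM by edgeR. With TMM over microRNA genes it was -1.34, with an unadjusted p of 0.00588 and an adjusted p of 0.991. Without replicate 2 it was -1.97 (edgeR adjusted p = 0.00751) with total counts, -3.38 (adjusted p = 0.00375) with TMM and -1.56 (adjusted p = 0.435) with TMM over microRNA genes. miR-212 kept its negative sign in each of these 6 fits and passed the test in 2 of them. Of these 2, TMM without replicate 2 called 151 of 214 microRNA genes lower, with a median of -1.92. Total counts without it called 10 of 214 lower, with a median of -0.43.

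miR-541, of the imprinted DLK1-DIO3 cluster, stood at 38.9, 41.5 and 30.4 RPM with AAV.miS1 and 53.6, 53.8 and 69.9 RPM with vehicle (log2 fold change -0.68 with total counts and -0.59 with TMM). miR-10b, of a Hox cluster, stood at 113.1, 91.9 and 45 RPM with AAV.miS1 and 117, 135.1 and 135.8 RPM with vehicle (-0.63 and -0.59). In both the groups lay close together, with the nearest libraries 41.5 and 53.6 RPM for miR-541 and 113.1 and 117 RPM for miR-10b. miR-190a was the fourth by p among the negative microRNAs, at 134.5, 81.8 and 113.4 against 240.4, 82.6 and 48 RPM (-0.17 and -0.60), and here the groups overlapped widely. None of these passed the test with all libraries. Without replicate 2, miR-541 and miR-10b were -2.23 and -2.25 with TMM (edgeR adjusted p = 0.00585 and 0.00763), and -0.77 and -0.71 with total counts (adjusted p = 0.104 and 0.168). In these fits the median microRNA gene stood at -1.92 with TMM, with 151 of 214 called lower, and at -0.43 with total counts.

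The other microRNA lists held no calls in either scaling, read beside medians over all tested genes of 0.06 with TMM and 0.91 with total counts. All 23 neuronal microRNAs were detected and 21 were tested, with a median log2 fold change of -0.02 with TMM and -0.08 with total counts. The 11 let-7 genes, a family that restrains proliferation, had medians of -0.15 and -0.24, and 0 of 11 were positive with total counts against 3 with TMM. Their most abundant gene, let-7a-3 (MIRLET7A3), stood at 4472, 7642 and 5456 RPM with AAV.miS1 and 7040, 7467 and 6499 RPM with vehicle. The 6 members of the miR-30 family had medians of 0.03 and -0.31, and the 6 of the miR-181 family 0.04 and -0.15. The 13 tested genes of the DLK1-DIO3 cluster, expressed in brain from the maternal allele, had medians of -0.18 and -0.33. The 9 vascular and mural cell microRNAs had medians of -0.05 and -0.17, with endothelial miR-126 at 59.3, 130.2 and 62 RPM against 128.9, 76.5 and 108.7 RPM. The 10 tested genes of the miR-17-92 cluster and its paralogs, which promote cell cycle entry, had medians of 0.27 and -0.08. Within it miR-92a-1, named outside the fixed rule, was highest in replicate 2, at 449.9, 1745 and 694.3 RPM against 846.6, 752 and 959 RPM.

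Oligodendrocyte microRNAs overlapped between the groups. miR-338 stood at 52.8, 113.7 and 55.8 RPM with AAV.miS1 and 84.5, 112.2 and 102.9 RPM with vehicle, miR-219-2 at 8.2, 15.1 and 4.26 RPM against 8.35, 7.43 and 10.7 RPM, and miR-219-1 at 1.68, 4.25 and 0.608 RPM against 2.16, 1.88 and 3.09 RPM. Replicates 1 and 3 held the lowest miR-338 of the 6 libraries, and replicate 2 the highest. Medians of the 3 oligodendrocyte genes were 0.38 with TMM and -0.09 with total counts. The miR-29 family, which targets extracellular matrix genes, had medians of 0.26 and 0.19 over 4 genes. The list of miR-34 genes, which are targets of p53, and miR-449 genes had medians of 0.06 and -0.27 over 2 tested. miR-34a stood at 147.6, 490.3 and 96.5 RPM with AAV.miS1 and 202.9, 228.1 and 206.3 RPM with vehicle, replicate 2 being again the highest and replicates 1 and 3 the lowest. Choroid plexus and sensory epithelium microRNAs had medians of -0.12 and -0.16 over 4 tested, with miR-204, the defining choroid plexus gene, at 20.7 to 54.9 RPM with AAV.miS1 and 16 to 47.5 RPM with vehicle.

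**Figure D4:**
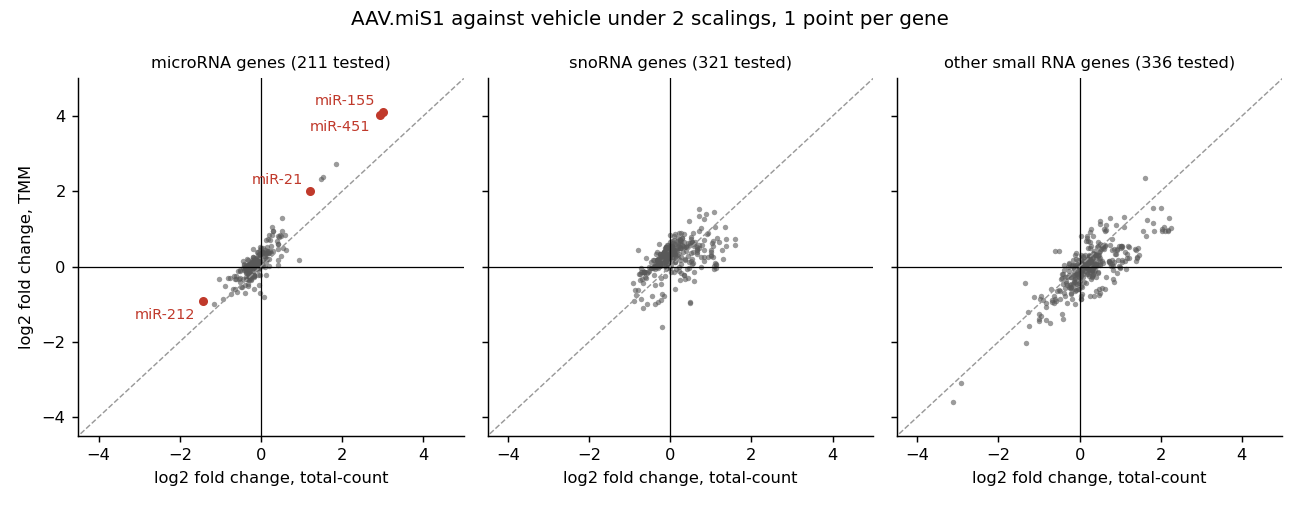
Log2 fold change of AAV.miS1 over vehicle under total-count scaling (horizontal axis) and TMM (vertical axis), with 1 point for each of 211 microRNA, 321 snoRNA and 336 other small RNA genes; the dashed line marks equal values. miR-155 and miR-451 lie at 3.0 and 2.92 under total counts and at 4.11 and 4.02 under TMM, and no point passed an adjusted p of 0.05 in either.

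Box C/D snoRNAs followed the composition of each library, and none of 254 tested genes was called in either scaling. Their median log2 fold change was 0.26 with TMM and -0.07 with total counts, and 141 of the 254 were highest in replicate 2. The most abundant were copies of SNORD116, of the imprinted Prader-Willi locus, of which the 4 most abundant carried counts within 1% of each other and the fifth was close to them. The first (ENSMMUG00000060178) stood at 3334, 6311 and 3783 RPM with AAV.miS1 and 3772, 5885 and 6328 RPM with vehicle. Of the 128 tested box C/D genes of the imprinted loci, whose reads are shared between copies, 81 were positive with TMM and 27 with total counts, and the medians were 0.08 and -0.25. SNORD114-9, of the DLK1-DIO3 locus, was below all vehicle libraries with total counts, at 552.2, 718.7 and 677.5 RPM with AAV.miS1 and 1147, 990.4 and 1343 RPM with vehicle. Its log2 fold change was -0.84 (SE 0.41, unadjusted p = 0.0602, adjusted p = 0.716) with total counts and -0.76 (SE 1.08, adjusted p = 1) with TMM by edgeR. Without replicate 2 it was -0.92 (edgeR adjusted p = 0.0528) with total counts and -2.35 (adjusted p = 0.00763) with TMM. Box C/D medians in these fits were -0.51 with total counts and -1.92 with TMM, with 28 and 189 of 255 genes called lower. SNORD114-14 of the same locus stood at 16.8, 29.1 and 25.2 RPM against 24, 41.8 and 64.1 RPM (-0.87 and -0.62), and its groups overlapped.

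The other box C/D genes named for the lowest p were SNORD52, SNORD93, SNORD53, SNORD9 and a copy of SNORD116. Their p-values were not small, at 0.175 to 0.49 with TMM and 0.28 to 0.863 with total counts (edgeR, unadjusted). All overlapped between the groups in both scalings. SNORD52 stood at 756.2, 6242 and 1260 RPM with AAV.miS1 and 1586, 1380 and 2083 RPM with vehicle, highest in replicate 2 and lowest in replicate 1 (log2 fold change 1.54 with TMM and 0.71 with total counts). SNORD93 and SNORD53 had the same order of replicate 2 over the rest, at 45.8 and 47.5 RPM in it, with log2 fold changes of 1.35 and 1.20 with TMM and 0.72 and 0.47 with total counts. SNORD9 held 9.11 to 11.6 RPM with AAV.miS1 and 10.5 to 19 RPM with vehicle (-0.49 with TMM and -0.38 with total counts). A copy of SNORD116 (ENSMMUG00000053417) was low in 1 library of each group, at 70, 3.04 and 53.3 RPM with AAV.miS1 and 63.6, 78.7 and 2.26 RPM with vehicle (-1.60 with TMM and -0.20 with total counts).

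Of 59 box H/ACA snoRNA genes tested, 42 were positive with total counts and 39 with TMM, beside 90.3 and 56.4% of all tested genes, with medians of 0.35 and 0.20 and 0 called. SNORA69 lay above all vehicle libraries in all AAV.miS1 libraries with total counts, at 21.2, 11.9 and 14.4 RPM against 7.55, 4.7 and 6.42 RPM. Its log2 fold change was 1.35 (SE 0.78, adjusted p = 0.716) with total counts and 1.04 (SE 0.68, adjusted p = 1) with TMM by edgeR. Without replicate 2 it was 1.52 (edgeR adjusted p = 0.0101) with total counts and 0.03 with TMM. That total-count fit called 50.1% of all tested genes higher, with a median of 1.47. Among box H/ACA genes it called 13 of 63 higher, with a median of 0.41. In all, 10 of 321 snoRNA genes (3.12%) lay above and 2 (0.623%) below all vehicle libraries with total counts, beside 1.64 and 0.313% of all tested genes, and with TMM it was 1 and 1 (0.312% each), beside 2.27 and 2%. The RPL13A snoRNAs, implicated in the response to lipotoxic stress, were positive in 4 of 4 tested in both scalings, with medians of 0.57 with TMM and 0.47 with total counts. One of them, SNORD33, stood at 51.1, 30.8 and 31.2 RPM against 17.4, 24 and 24.5 RPM. Of 8 tested Cajal body RNAs, which guide modification of spliceosomal RNAs, 6 were positive in both scalings, with SCARNA16 at 23.8, 11.9 and 19.3 RPM against 7.95, 9.78 and 9.28 RPM.

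Some snoRNA genes were higher in replicates 1 and 3 of AAV.miS1 than in any other library. The share of genes with a symbol outside the small RNA classes had the same order. SNORD90, chosen after its values were seen, stood at 1513, 187.3 and 1308 RPM with AAV.miS1 and 405.4, 190.2 and 403.6 RPM with vehicle. SNORA81, chosen in the same way, stood at 187.5, 40.5 and 189.8 RPM against 46.2, 48.9 and 42.7 RPM. Replicates 1 and 3 were high in both genes, and replicate 2 lay below all vehicle libraries.

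Vault RNAs, components of the cytoplasmic vault particle, were 0 of 3 called. The most abundant vault gene (ENSMMUG00000024017) stood at 481, 654.1 and 415.9 RPM with AAV.miS1 and 228.7, 177 and 325.9 RPM with vehicle. The lowest AAV.miS1 library exceeded the highest vehicle library, and replicate 2 was the highest of the 6. With TMM the groups overlapped. Its log2 fold change was 1.08 (SE 0.48, unadjusted p = 0.0395, adjusted p = 0.716) with total counts and 1.31 (SE 1.09, adjusted p = 1) with TMM by edgeR. Without replicate 2 it was 0.88 (edgeR adjusted p = 0.0669) with total counts and -0.56 (adjusted p = 0.453) with TMM. A second vault gene (ENSMMUG00000025999) was also above in all 3 with total counts and not with TMM, at 10.5, 6.98 and 18.5 RPM against 4.58, 1.69 and 5.11 RPM (1.66 with total counts and 1.24 with TMM). The third (ENSMMUG00000028464) overlapped, at 54.2, 45.4 and 22.1 RPM against 32.7, 38.5 and 43.1 RPM (0.09 and 0.16). With total counts 2 of 3 vault genes thus lay above all vehicle libraries, beside 1.64% of all tested genes, and with TMM 0 of 3.

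Y RNAs, which bind the Ro60 protein and are cut to abundant fragments in stressed cells, were 0 of 71 called. With total counts 69 of 71 were positive, with a median of 0.59 beside 0.91 over all tested genes, and with TMM 58 of 71, with a median of 0.24 beside 0.06. By summed level they stood at 51090, 29630 and 56210 RPM with AAV.miS1 and 27420, 21130 and 31710 RPM with vehicle. AAV.miS1 replicates 1 and 3 were the highest, as for genes with a symbol outside the small RNA classes. One gene (ENSMMUG00000026815) stood at 136.2, 11.7 and 41.6 RPM against 12.5, 10.8 and 21.6 RPM (2.07 with total counts and 1.04 with TMM), and another (ENSMMUG00000028086) at 52.3, 3.95 and 18.2 RPM against 4.85, 3.1 and 10.4 RPM (2.02 and 1.00). With total counts replicate 2 fell within the vehicle range in both, and with TMM all AAV.miS1 libraries were above vehicle for the first gene. Without replicate 2 both were called with total counts, at 2.57 and 2.53 (edgeR adjusted p = 0.00501 for each), and neither with TMM. That total-count fit called 34 of 82 Y RNA genes and 50.1% of all tested genes higher, with medians of 1.14 and 1.47.

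Spliceosomal RNAs, 0 of 117 called, had medians of -0.07 with TMM and 0.23 with total counts. The U6 gene with the smallest p among the positive ones (ENSMMUG00000051861) stood at 105.9, 8.91 and 92.3 RPM with AAV.miS1 and 12.7, 16.2 and 21.9 RPM with vehicle (2.03 with total counts and 0.94 with TMM). A second U6 gene (ENSMMUG00000060626) had the same order, at 91.7, 4.05 and 83.1 RPM against 10.8, 11.5 and 17.1 RPM (2.18 and 0.98). Without replicate 2 the first was called with both scalings, at 2.55 (edgeR adjusted p = 0.00501) with total counts and 1.12 (adjusted p = 0.0254) with TMM. The second was called likewise, at 2.73 (edgeR adjusted p = 0.00501) and 1.31 (adjusted p = 0.0119). In these fits total counts called 50.1% of all tested genes and 26 of 166 U RNA genes higher. TMM called 0.403% of all tested genes and 5 of 166 U RNA genes higher. Among negative genes of the other small RNA classes with a mean of at least 10 RPM, the 4 with the smallest p were high in vehicle replicate 2. Below that level, a U1 gene (ENSMMUG00000033003) lay under all vehicle libraries with total counts, at 0.21, 0.506 and 0 RPM against 2.16, 2.82 and 1.43 RPM. Also below it, the U2 gene ENSMMUG00000062920 lay above all vehicle libraries with total counts, at 5.05, 2.02 and 2.03 RPM against 0.539, 0.941 and 0.714 RPM. A 5S ribosomal gene (ENSMMUG00000026466) stood at 3.15, 1.52 and 2.23 RPM against 0.674, 51.7 and 7.73 RPM (-3.13 with total counts and -3.61 with TMM), and a U2 gene (ENSMMUG00000053216) at 135.2, 26 and 48.3 RPM against 27.3, 240.5 and 79.7 RPM (-0.73 and -1.51). The other U2 genes named by the same rule (ENSMMUG00000034149 and ENSMMUG00000034936) held 59.3 and 100.4 RPM in vehicle replicate 2 and at most 22.5 and 69.2 RPM elsewhere (-1.45 and -1.25 with TMM, -1.01 and -0.43 with total counts). Without vehicle replicate 2 the TMM values of the 5S gene and the 3 U2 genes high in that library were -1.13, -0.27, 0.23 and -0.0925. Their copies are near-identical, so the assignment of reads among them is uncertain. SRP, 7SK, RMRP and RNase P genes, 0 of 115 called, had medians of -0.02 and 0.03. Ribosomal RNA genes, 0 of 6 called, had medians of -0.63 with TMM and -0.25 with total counts.

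ATXN1 itself, the target of miS1, was measured here through fragments in the small RNA libraries. Counts in its gene were 139, 843 and 49 in the AAV.miS1 group and 20, 24 and 45 in the vehicle group, or 29.2, 85.3 and 9.94 RPM against 2.7, 2.26 and 5.35 RPM. The groups did not overlap in either scaling, and their order was that of miS1, at 946.4, 6973 and 106.7 RPM. The log2 fold change was 3.59 (SE 0.95, unadjusted p = 0.00215, adjusted p = 0.716) with total counts and 4.35 (SE 1.33, unadjusted p = 0.00709, adjusted p = 1) with TMM by edgeR, so ATXN1 did not pass the test. Without the filter on low counts it did, at 4.04 (edgeR adjusted p = 0.00278). Without replicate 2 it was 2.51 (edgeR adjusted p = 0.00501) with total counts and 1.04 (adjusted p = 0.18) with TMM. That total-count fit called 4528 of 8128 genes with a symbol outside the small RNA classes higher, with a median of 1.55. Short reads in ATXN1 are no measure of the level of its messenger RNA. Whether they include miS1 reads aligned to its target was not tested.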

How the data were processed

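The deposited count tables hold whole-number counts per gene, made by the authors. The sources used here name neither the counting program nor the genome build; the submitters' processing notes name STAR 2.6.0c and DESeq2. Libraries were made with the TruSeq Small RNA kit after miRNeasy extraction, per the labels' protocols. Some genes with the same or overlapping sequence carry the same reads: 74 of 778 genes with at least 50 counts in each library matched another gene within 1% in every library. Counts of a microRNA gene sum both arms of its hairpin. The 5 vector features were left out of library sizes. Symbols came from a table of gene identifiers and matched 24009 of 34847 genes; the classes follow the symbol.

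Counts were tested with edgeR 4.0.16 (glmQLFit and glmQLFTest, R 4.3.3), with a filter on low counts (filterByExpr, minimum count 10, minimum total 15), TMM and a group term alone, two-sided, with Benjamini-Hochberg adjustment over all genes tested and a threshold of 0.05. Total-count scaling is printed beside it. The script was tested on simulated data. RPM is the count over the library's total in genes, times 1000000. Class shares were compared by exact permutation. DESeq2 1.42.0, other scalings and filters, a replicate block and leaving out each library were alternatives, and those with AAV.miS1 replicate 2 left out under other scalings, small RNA classes alone, microRNA genes alone by total counts, DESeq2 without its outlier and independent filters, and 1 gene per shared profile were added after seeing the data.

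Within each class, the text names from a fixed rule. It takes the 4 genes with the smallest p in each direction with a mean of at least 10 RPM (no gene was called). It adds the 10 most abundant microRNA and 5 most abundant snoRNA genes. Members of each list with its lowest p, and fixed immune, neuronal and glial microRNAs, complete it. ATXN1 was added as the target. Other genes named outside this rule include miR-92a-1, SNORD90, SNORA81, miR-664 and miR-885. The members, the 24 lists and the 10 marker lists were chosen with earlier results of these data known. The depth, 4756968 to 10629988 counts per library, limits genes of a few RPM.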

Additional observations from a re-analysis of the deposited data

How the results depend on the processing

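Under total-count scaling, upper-quartile scaling, the stricter filter, library sizes without the most abundant gene, microRNA genes alone, small RNA classes alone and 1 gene per shared profile, 0 genes were called, as with TMM. DESeq2 called 0 of 24171 genes and gave no p to 205, which include miR-155, miR-451, miR-142, miR-146a, miR-21, miR-223, SNORD52, SNORD53 and ATXN1; with its filters off it called 1 gene, of the other small RNA classes, and miR-155, miR-451 and ATXN1 stayed uncalled. Without the filter on low counts 21 genes were called, of which 2 were microRNA genes (miR-155 and miR-451), 13 of other small RNA classes and 5 of other symbols (ATXN1 among them). Leaving out each library in turn gave 0 to 642 genes, 0 to 151 microRNA genes, 0 to 209 snoRNA genes, 0 to 81 other small RNA genes and 0 to 89 other-symbol genes, and every call came from leaving out AAV.miS1 replicate 2. With that library left out under total counts, 5156 genes were called, with 10 microRNA, 52 snoRNA, 69 other small RNA and 4530 other-symbol genes; the cause of the difference from TMM was not tested.

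The replicate numbers were not shown to pair the libraries: the deviations of same-numbered libraries correlated at -0.0739, 0.134 and 0.156, and AAV.miS1 replicate 1 correlated best with vehicle replicate 3. A replicate block gave 0 calls, with 37 genes at an unadjusted p under 0.05. Under the block the log2 fold change of 10 of 30 genes changed sign: miR-155 -0.65, miR-451 -0.81, miR-142 -0.28, miR-146a -0.10, miR-21 -0.35, miR-223 -1.07, SNORD93 -0.40, SNORD53 -0.67, SNORD52 -0.80 and the third vault gene -0.59. Without AAV.miS1 replicate 2 under total counts, 11 did: miR-155 -0.87, miR-451 -1.29, miR-142 -0.46, miR-146a -0.25, miR-190a 0.00388, SNORD93 -0.44, SNORD53 -0.54, SNORD52 -0.74, the SNORD116 copy 0.36, miR-21 -0.52 and miR-223 -1.07. With microRNA genes alone and that library left out, 6 of 10 did: miR-155 -0.43, miR-451 -0.91, miR-142 -0.0923, miR-190a 0.33, miR-21 -0.16 and miR-223 -0.71. miR-190a was also 0.0175 and 0.0894 with microRNA genes alone by TMM and by total counts, and the third vault gene -0.0923 without the filter and -0.17 with the stricter one.

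Leaving out each library in turn moved log2 fold changes across 0 for miR-155 (-2.21 to 4.66), miR-451 (-2.78 to 4.57), miR-142 (-1.95 to 3.43), miR-146a (-1.71 to 2.86), miR-21 (-2.06 to 2.52), miR-223 (-2.62 to 1.81), miR-190a (-1.62 to 0.46), SNORD93 (-1.99 to 1.85), SNORD53 (-1.90 to 1.71), SNORD52 (-2.13 to 2.06), a U2 gene (-2.39 to 0.23) and 2 vault genes (-0.56 to 1.72 and -1.52 to 0.60). Class shares differed by -3.94 to 0.385 percentage points for box C/D snoRNA, -0.0856 to 0.178 for U RNA and -3.46 to 0.711 for genes with no symbol; the other classes kept their sign. With 3 libraries a group, 1 library decides most of these values.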
